A study of Mus musculus with 4 samples.

Results

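The genes described here make cholesterol and fatty acids from acetyl-CoA, together with the sterol-sensing proteins that set their transcription and 3 genes of sterol handling. They are 34 of the 20140 genes with a named probe, a list of gene symbols that was chosen with earlier results of these data known. The 34 genes were read through 48 of the 26575 named probes by matching each probe's RefSeq accession. The sterol arm held 19 genes on 26 probes, the fatty acid arm 7 genes on 11 probes, the SREBP regulators 5 genes on 7 probes, and sterol handling 3 genes on 4 probes. The sterol arm was split into a mevalonate segment of 8 genes, from acetoacetyl-CoA to the prenyl diphosphates, and a squalene-to-cholesterol segment of 11 genes.

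Cells build cholesterol from acetyl-CoA by way of mevalonate, farnesyl diphosphate, squalene and lanosterol, and they build saturated and monounsaturated fatty acids from the same acetyl-CoA by way of malonyl-CoA. SREBP transcription factors drive both arms: when sterols in the endoplasmic reticulum run low, SCAP escorts the SREBPs to the Golgi for cleavage, and INSIG proteins hold the complex back when sterols are plentiful. SREBF2 is known mainly for the sterol arm and SREBF1 mainly for the fatty acid arm. Type II interferon is known to change sterol metabolism in macrophages, where it induces Ch25h, the enzyme that makes 25-hydroxycholesterol, an oxysterol that blocks SREBP processing.

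The study compared 2 mouse tumor lines, each with vehicle or with IFN-γ for 24 h, on 4 one-colour Agilent arrays of 1 slide. AB1-HA is labelled a mesothelioma of the BALB/c strain, and LLC, also titled 3LL, a lung carcinoma of the C57BL6 strain, so that tumor type and strain cannot be told apart between the lines. The 4 groups were AB1-HA with vehicle, AB1-HA with IFN-γ, LLC with vehicle and LLC with IFN-γ. There was 1 array per group and no replicate, the sources used here do not say how many cultures lay behind each RNA, and no test within a line or between the lines was possible. Every difference below is therefore a difference between single arrays, described by its size, and the vehicle arrays enter more than 1 comparison.

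Levels are log2 processed signals relative to the array's 75th percentile over gene probes, so a level of 0 is a probe at that percentile. A gene was counted as higher or lower, as a description of size only, where the difference between 2 arrays was at least 0.32 on the log2 scale, and 2-fold was counted as well. Probes differ in how brightly they hybridise, so levels were compared between arrays and not between genes. The scanner software's own error, carried to a difference of 2 log2 levels, had a median of 0.20 over the members, and that of a difference of differences had a median of 0.29. Each median was also the lowest value, so the error was nearly the same for most members. Repeated spots of 1 probe gave differences with a median SD of 0.062 in AB1-HA and 0.038 in LLC (234 probes), and different probes of 1 gene a typical SD of 0.083 and 0.108 (3113 genes). None of these spreads covers variation between cultures.

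Between 57.5% and 58.2% of the probes were well above background on an array, and no gene spot was saturated. Of the members, 33 were well above background on all 4 arrays. The exception, Ch25h, was not well above background on the AB1-HA vehicle array. Irf1, a transcription factor that IFN-γ is known to induce, had levels of 1.72 and 6.16 in AB1-HA and 1.95 and 6.38 in LLC with vehicle and IFN-γ, so it was higher on both IFN-γ arrays by a similar amount (4.44 and 4.43). Among cell type markers, 5 and 4 of 7 mesothelial genes were well above background in AB1-HA with vehicle and IFN-γ, and 4 and 5 in LLC, with Wt1 and Upk3b above it on no array. Msln, mesothelin, had levels of 5.19 and 4.77 in AB1-HA and −3.37 and −4.80 in LLC. The keratins of the same list did not all run that way: Krt18 had levels of −2.53 and −4.05 in AB1-HA and 6.39 and 6.04 in LLC, and Krt8 of −4.86 and −7.66 (not well above background) and of 2.57 and 2.22. With vehicle these 2 were 485-fold and 172-fold higher in LLC, and with Krt19 (1.23, 0.69, −0.45 and −1.22) they were lower on the IFN-γ array in both lines. None of 5 lung epithelial markers was well above background on any array, LLC included. Of 6 macrophage and leukocyte genes with a probe, 3 were well above background on every array (Csf1r, Itgam and Cd14), while Ptprc, which marks all leukocytes, Adgre1 and Lyz2 were not well above background on any. Csf1r differed with IFN-γ by −0.35 in AB1-HA and 1.74 in LLC, and its part and that of the keratins in the results below was not tested. The 3 endothelial genes gave 2 above background on every array.

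The promoters of 4 genes are shown first because they hold letters that SREBPs are known to bind, and because the genes, which include members of the sterol arm, a regulator and a sterol exporter, did not differ in the same way between the arrays. RefSeq promoter windows on build GRCm38.p6, each 300 bases from 250 before to 50 after the annotated gene start, were at hand for 28 of the 34 members (36 windows); Fdps, Fdft1, Sqle, Stard4, Scd1 and Scd2 had none in the table used. The classical sterol regulatory element, CACCCCAC on either strand, was found in 2 of the 36 windows (5.56%), those of Hmgcs1 and Acat2, against 2.87% of all 32851 windows. A looser form, CACNCCAC, which includes the first motif, was found in 3 windows (8.33% against 6.24%), adding Insig1. The E-box CACGTG, which reads the same on both strands and which SREBPs can also bind, was found in 7 windows of 6 genes (19.4% against 7.15%): Abca1, Dhcr7, Hsd17b7, Insig1, Sc5d and Scap. The 2 Scap windows overlap and hold the same E-box, so shares by window can count 1 site more than once. By gene, 6 of the 28 members held it, and the share by gene over all promoters was not computed. The 250 bases before the start are given on the gene's own strand, with CACNCCAC (either strand) and CACGTG in capitals, for Hmgcs1 at chr13:119690101-119690350 (plus strand), Acat2 at chr17:12960726-12960975 (minus strand), Insig1 at chr5:28071162-28071411 (plus strand) and Abca1 at chr4:53159896-53160145 (minus strand).
Hmgcs1: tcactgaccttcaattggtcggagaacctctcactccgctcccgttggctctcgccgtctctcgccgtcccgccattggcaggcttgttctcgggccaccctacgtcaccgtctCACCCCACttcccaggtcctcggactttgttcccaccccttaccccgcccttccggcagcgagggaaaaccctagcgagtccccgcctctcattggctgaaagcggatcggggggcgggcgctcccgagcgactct
Acat2: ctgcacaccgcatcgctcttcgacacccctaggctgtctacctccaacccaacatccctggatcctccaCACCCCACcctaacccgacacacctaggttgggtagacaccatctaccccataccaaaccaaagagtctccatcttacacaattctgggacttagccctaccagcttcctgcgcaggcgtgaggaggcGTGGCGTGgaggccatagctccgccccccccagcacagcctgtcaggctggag
Insig1: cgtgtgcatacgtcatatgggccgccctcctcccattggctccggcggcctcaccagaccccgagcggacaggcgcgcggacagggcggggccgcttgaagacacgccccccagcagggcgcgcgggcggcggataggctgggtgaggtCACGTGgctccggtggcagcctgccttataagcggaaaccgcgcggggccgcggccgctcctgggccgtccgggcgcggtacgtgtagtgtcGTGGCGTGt
Abca1: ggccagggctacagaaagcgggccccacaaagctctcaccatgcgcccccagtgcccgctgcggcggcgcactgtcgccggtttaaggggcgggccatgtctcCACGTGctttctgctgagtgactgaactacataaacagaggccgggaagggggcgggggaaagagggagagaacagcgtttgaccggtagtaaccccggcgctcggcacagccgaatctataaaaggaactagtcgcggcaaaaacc
The Hmgcs1 element began 136 bases before the start, and Acat2 held elements at 181 and, on the opposite strand, 53 bases before it. Insig1 had its element 9 bases before the start on the opposite strand and an E-box at 101, and the Abca1 E-box lay at 147. Among the other letters searched on both strands, the NF-Y motif CCAAT stood in 63.9% of the members' windows against 37.4% of all, and the Sp1 motif GGGCGG in 69.4% against 35.7%. The gamma-activated site TTCNNNGAA, which interferon-activated STAT dimers are known to bind, was found in 2 members' windows, those of Ebp and Ggps1 (5.56% against 8.3% of all). These are matches of letters in short windows, and the arrays do not measure binding.

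With IFN-γ in AB1-HA, the sterol arm was higher as a block. All 19 genes lay above 0, with a median difference of 0.40 (range 0.0086 to 0.62), where 36.4% of the 13208 genes with a value lay above 0 and their median was −0.08. By at least 0.32, 15 of the 19 were higher and none lower, against backgrounds of 10.2% higher and 15.1% lower over all genes, and none reached 2-fold, which 2.98% of all genes did upward and 1.17% downward. In RNA from whole cultures, a change in every cell and a change in the share of cells that carry a transcript cannot be told apart. The difference exceeded the gene's own scanner error for 17 of the 19, the exceptions being Ggps1 and Ebp. Over all genes with a value, the 28th percentile was −0.20 and the 85th 0.20, so that size was often passed, more often downward. Over only the 6576 genes brighter than the 75th percentile on average, where most sterol genes lie, the backgrounds at 0.32 were 6.08% higher and 9.90% lower. The median of these brighter genes was −0.09. In LLC the same 19 genes had a median of −0.06, the same as over all 13411 genes with a value (−0.06). Of the 19, 7 lay above 0, where 42.6% of all genes did. For 6 the difference was beyond the gene's own scanner error (Acat2, Idi1 and Ggps1 higher, Pmvk, Mvd and Dhcr7 lower). The 30th and 77th percentiles over all genes in LLC were −0.21 and 0.21, so that count was not above the background.

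**Figure D1:**
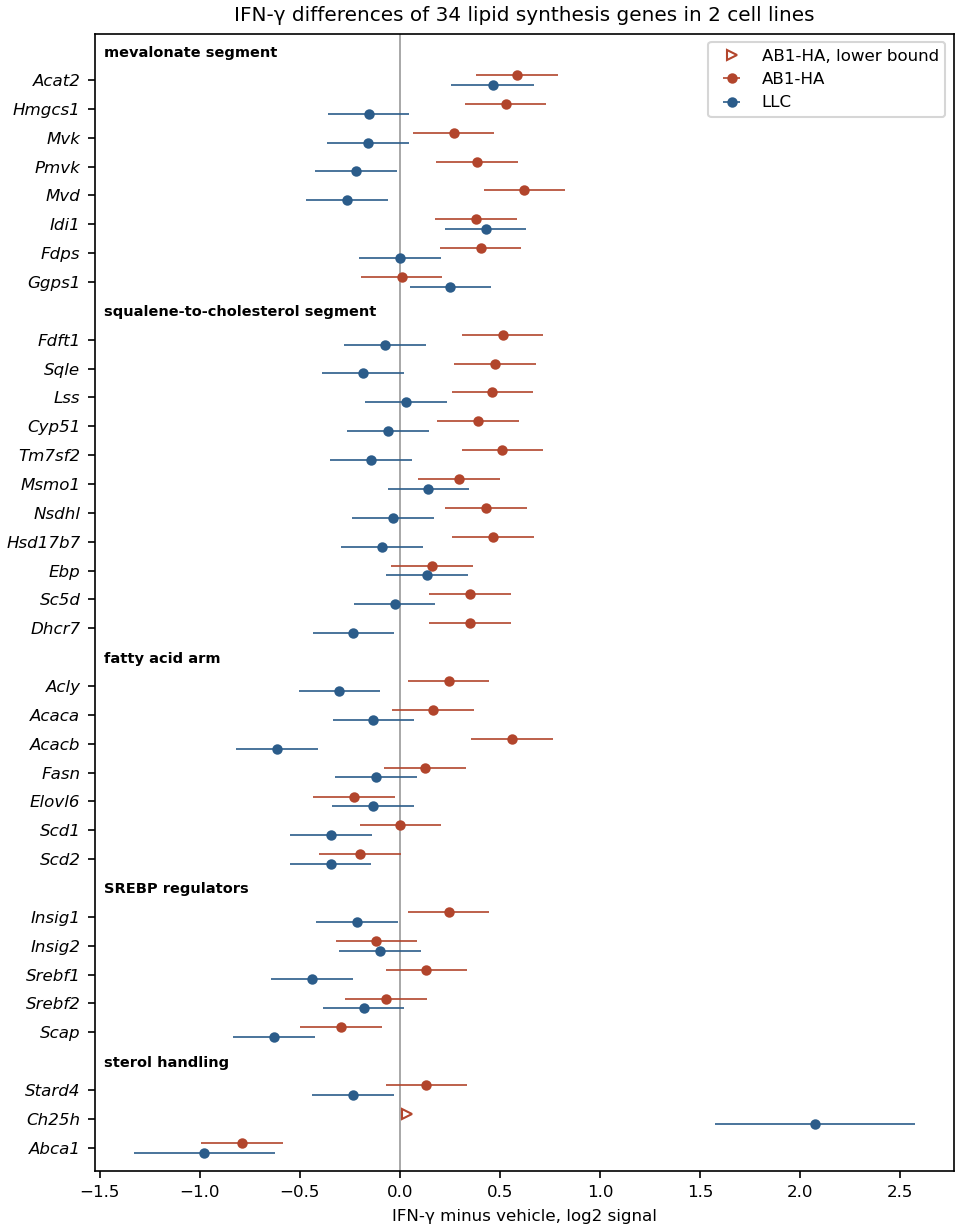
Difference between the IFN-γ and the vehicle array (x axis, log2 signal) for each of the 34 genes (y axis, by arm) in AB1-HA (red) and LLC (blue), 1 array per group, with bars for the scanner software's error and an open triangle for the lower bound of Ch25h in AB1-HA. The 19 sterol arm genes all lie right of 0 in AB1-HA, while in LLC they lie on both sides of it.

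The mevalonate segment begins with Acat2, the cytosolic thiolase that joins acetyl-CoA units, whose levels were −3.00 and −2.42 in AB1-HA with vehicle and IFN-γ and −4.36 and −3.90 in LLC. It was higher with IFN-γ in both lines, by 0.58 and 0.46, at dim signals of 77.6 to 265 intensity units, and another background correction (normexp) gave 0.18 and 0.23. Hmgcs1, the synthase that makes HMG-CoA, had levels of 4.32 and 4.85 in AB1-HA and 3.80 and 3.64 in LLC. Its difference was 0.53 (1.44-fold) in AB1-HA and −0.16 in LLC, the latter inside its scanner error. Both promoters hold the sterol element, whose part in these differences was not tested. In LLC Acat2 was counted as higher and Hmgcs1 was not, but the normexp value of Acat2 (0.23) was under the size counted.

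The kinases and the decarboxylase that follow showed the pattern of Hmgcs1. Mvk, mevalonate kinase, had levels of 3.77, 4.04, 3.13 and 2.98 in the order AB1-HA vehicle, AB1-HA IFN-γ, LLC vehicle and LLC IFN-γ, an order kept from here on. Pmvk, phosphomevalonate kinase, stood at 4.79, 5.17, 3.90 and 3.68. Mvd, the decarboxylase that yields isopentenyl diphosphate, stood at 0.79, 1.41, 0.62 and 0.36, with differences of 0.62 (1.54-fold) in AB1-HA, the highest of the arm, and −0.26 in LLC, the lowest of the arm. For Pmvk the differences were 0.39 and −0.22, and for Mvk 0.27 and −0.16. All 3 were thus highest on the AB1-HA IFN-γ array and lowest on the LLC IFN-γ array.

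The isomerase and the prenyl synthases did not share that pattern. Idi1, which interconverts the isopentenyl units, had levels of 3.69, 4.07, 2.43 and 2.86 and was higher with IFN-γ by a similar amount in both lines (0.38 and 0.43). Fdps, farnesyl diphosphate synthase, had levels of 6.06, 6.47, 5.003 and 5.005, with a difference of 0.40 in AB1-HA and 0.0016 in LLC. Ggps1, which lengthens farnesyl to geranylgeranyl diphosphate for protein prenylation and so stands on a branch away from cholesterol, had levels of 0.11, 0.12, 0.96 and 1.21. It was the only sterol arm gene with its highest level on an LLC array, and its difference was 0.0086 in AB1-HA and 0.25 in LLC. The dimmer of its 2 probes gave 0.13 and 0.81, and read the line difference the other way at vehicle (−0.22 against 0.85).

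Farnesyl diphosphate is committed to sterols by Fdft1, squalene synthase, whose levels were 2.42, 2.94, 1.49 and 1.41. Its difference was 0.51 in AB1-HA and −0.08 in LLC, and its dim second probe gave 0.56 and −0.47. Sqle, squalene epoxidase, a rate-limiting oxygenase, had levels of 4.45, 4.93, 4.37 and 4.19, with differences of 0.48 and −0.18. Without the cytokine, Sqle was close to level between the lines (−0.08, with the sign turned under quantile normalization, 0.17, and cyclic loess, 0.07), and with it LLC was lower by 0.74 on the log2 scale.

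Lss, which closes squalene epoxide into lanosterol, had levels of 0.74, 1.20, −0.84 and −0.81, with differences of 0.46 and 0.03. Cyp51, the lanosterol demethylase, had levels of 0.37, 0.76, −0.48 and −0.54, with 0.39 in AB1-HA and −0.06 in LLC. Tm7sf2, a sterol reductase, had levels of 1.31, 1.82, 0.78 and 0.64, with 0.51 and −0.14, and its second probe gave 0.45 and −0.16. For all 3, the AB1-HA arrays stood above both LLC arrays and the IFN-γ difference was past 0.32 in AB1-HA and not in LLC.

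The demethylation complex gave mixed sizes. Msmo1, the C4 methylsterol oxidase, had levels of 5.16, 5.45, 4.28 and 4.42, and its difference was 0.30 in AB1-HA and 0.14 in LLC, where it was −0.0024 under array median scaling. Nsdhl, the decarboxylating dehydrogenase, had levels of 1.09, 1.52, −0.23 and −0.27, with 0.43 and −0.04. Hsd17b7, the ketoreductase, had levels of −1.65, −1.18, −1.79 and −1.88, with 0.47 and −0.09. The second probes of Nsdhl and Hsd17b7 gave 0.45 and 0.36 in AB1-HA and turned the sign in LLC (0.16 and 0.0082).

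Of the last steps, Ebp, the sterol isomerase, was the sterol arm gene that differed most between the lines and the one whose IFN-γ difference in AB1-HA was, beside that of Ggps1, within its scanner error. Its levels were 4.90, 5.06, 2.34 and 2.47, so both LLC arrays lay far below both AB1-HA arrays, and the IFN-γ difference was 0.16 and 0.14. Sc5d, the lathosterol desaturase, had levels of 2.59, 2.94, 2.77 and 2.74, and it was the only gene of its segment whose vehicle level was higher in LLC. Dhcr7, the reductase of the final step to cholesterol, had levels of 0.27, 0.63, −0.64 and −0.88, with differences of 0.35 and −0.23.

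**Figure D2:**
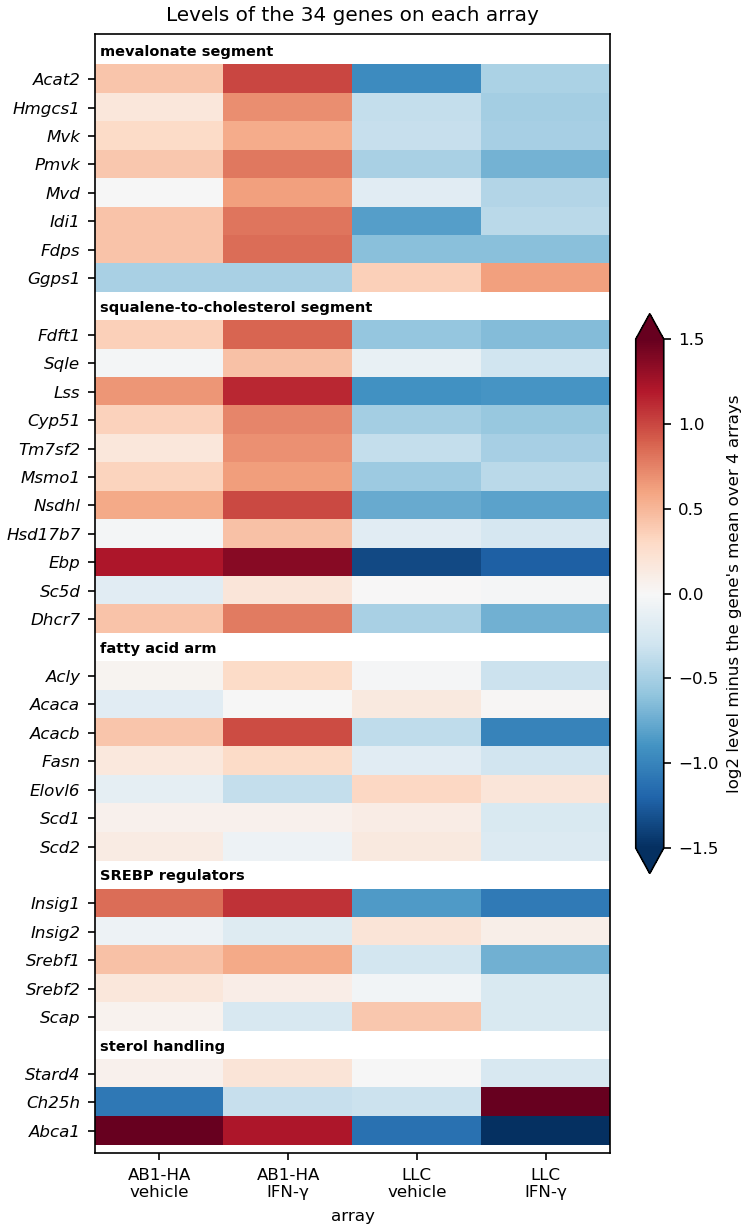
Level of each of the 34 genes (rows, by arm) on each of the 4 arrays (columns), as log2 signal minus that gene's mean over the 4 arrays (colour, red above and blue below, limits at −1.5 and 1.5). In the sterol arm, 18 of 19 rows are highest in the AB1-HA IFN-γ column, a count whose share over all genes was not computed. Ch25h in AB1-HA vehicle cells was not well above background.

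Across the sterol arm, the AB1-HA IFN-γ array was the highest of the 4 for 18 of 19 genes. The lowest array was LLC with IFN-γ for 11 genes, LLC with vehicle for 6 and AB1-HA with vehicle for 2. For 17 of the 19, both AB1-HA arrays stood above both LLC arrays. The shares of all genes with these array orders were not computed, so the counts describe the arm without a background. Segments behaved alike in AB1-HA, with medians of 0.39 (6 of 8 genes counted as higher) in the mevalonate segment and 0.43 (9 of 11) in the squalene-to-cholesterol segment. They were also alike in LLC, at −0.08 and −0.06. In LLC only Acat2 and Idi1 were higher by at least 0.32 and none was lower by as much, against backgrounds of 16.7% and 18.2% of all genes, so that the arm's count in LLC was not above the background.

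**Figure D3:**
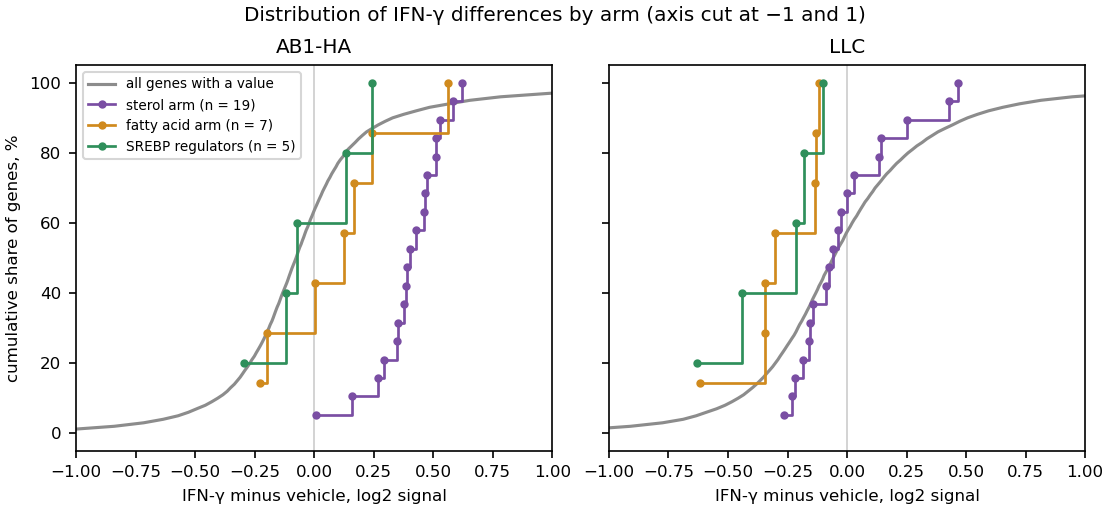
Cumulative share of genes (y axis, percent) at or below each IFN-γ minus vehicle difference (x axis, log2 signal, cut at −1 and 1) in AB1-HA (left) and LLC (right), for all genes with a value (grey) and for the sterol arm, fatty acid arm and SREBP regulators. The sterol arm's curve stands right of all genes in AB1-HA (median 0.40 against −0.08) and has their median in LLC (both −0.06), where each of the 7 fatty acid and 5 regulator genes lies left of 0. Of all genes in LLC, 42.6% lie right of 0.

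The fatty acid arm did not show the sterol arm's block in AB1-HA. Its median difference was 0.13 (range −0.23 to 0.56), with 5 genes above 0 and 2 below, where 36.4% of all genes lay above 0. Of the 7, 1 (Acacb) was higher by at least 0.32, close to the background of 10.2%. In LLC all 7 were below 0, where 42.6% of all genes were above it. The median there was −0.30, against −0.06 over all genes. By at least 0.32, 3 were lower (Acacb −0.62, Scd1 −0.34 and Scd2 −0.35) against a background of 18.2%. Acaca, Fasn and Elovl6 were within the scanner error in LLC. With the mean over a gene's probes, 2 of the 7 were above 0 in LLC and the median was −0.13. The arm's median in AB1-HA was −0.02 after normexp, with 3 genes above 0 and 4 below.

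Acly makes cytosolic acetyl-CoA from citrate and so supplies both arms. Its levels were 4.77, 5.01, 4.70 and 4.40, with differences of 0.24 in AB1-HA and −0.30 in LLC, each larger than its scanner error, and its dim second probe gave 0.22 and −0.17. Acaca, the acetyl-CoA carboxylase of lipogenesis, had levels of 2.78, 2.94, 3.09 and 2.96, so its differences of 0.17 and −0.13 were within the scanner error. Its 2 dim further probes gave −0.02 and 0.38 in AB1-HA and 0.29 and −0.08 in LLC, and their signs did not agree.

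Acacb is the carboxylase of the mitochondrial surface, whose malonyl-CoA restrains fatty acid oxidation. Its levels were −1.93, −1.37, −2.73 and −3.34, with differences of 0.56 (1.48-fold) in AB1-HA and −0.62 in LLC, the only gene of the arm past 0.32 in both lines. The size depended on the probe and the background: normexp gave 0.38 and −0.35, and the second probe, well above background only in AB1-HA, gave 0.13 there. Averaging that probe in brought the LLC value to 0.0026.

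Fasn, the fatty acid synthase itself, had levels of −1.85, −1.72, −2.18 and −2.30. Its differences of 0.13 and −0.12 were within the scanner error, and the first was −0.02 after normexp. Elovl6, which elongates palmitate, had levels of 2.49, 2.27, 2.94 and 2.81, with −0.23 and −0.13, below 0 in both lines and in LLC within the scanner error. Scd1 and Scd2 are desaturases that put the double bond into stearate and palmitate. The 4 levels of Scd1 were 3.10, 3.10, 3.15 and 2.81, with 0.0026 in AB1-HA and −0.34 in LLC. Those of Scd2 were 6.55, 6.35, 6.56 and 6.22, with −0.20 and −0.35. At vehicle both desaturases stood at nearly the same level in the 2 lines (0.05 and 0.02).

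The SREBP regulators had a median difference with IFN-γ of −0.07 in AB1-HA (range −0.30 to 0.24, and a median of 0.0025 under cyclic loess). None of the 5 was past 0.32, where 10.2% of all genes were higher and 15.1% lower by that much. In LLC all 5 were below 0, with a median of −0.21, where 42.6% of all genes were above 0, and Srebf1 and Scap were lower by at least 0.32, against 18.2% of all genes. Array median scaling put that median at −0.36. Insig1, the retention protein that is itself an SREBP target, had levels of −0.17, 0.08, −1.85 and −2.07. Its differences, 0.24 in AB1-HA and −0.21 in LLC, were each just larger than its scanner error and pointed in opposite directions. Insig2, the retention protein that does not depend on SREBP in the same way, had levels of 1.79, 1.68, 2.06 and 1.96 and differences of −0.12 and −0.10, both within the scanner error, and its second probe gave −0.11 and −0.22.

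Srebf1 had levels of −1.38, −1.245, −2.09 and −2.53, with differences of 0.13 in AB1-HA (0.03 after normexp) and −0.44 (1.36-fold lower) in LLC. Srebf2 had levels of 0.30, 0.23, 0.08 and −0.10, with −0.07 (0.0025 under cyclic loess) and −0.18, both within the scanner error. Scap, the escort of both factors, had levels of 3.81, 3.51, 4.16 and 3.53, with −0.30 in AB1-HA and −0.63 (1.55-fold lower) in LLC. With its brightest probe, the transcript of Srebf2, the factor known for the sterol arm, was not higher on the AB1-HA IFN-γ array, on which the arm was highest. The dimmer second probe of Srebf2 gave 0.06 in AB1-HA and −0.24 in LLC, and was highest on that array. SREBP cleavage is a step on protein, which these arrays do not measure.

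Sterol handling held the 3 genes outside synthesis. Stard4, a cytosolic sterol carrier and SREBP target, had levels of 1.22, 1.35, 1.15 and 0.92, with differences of 0.13 and −0.23, and its second probe turned the sign in LLC (0.19) and gave a line difference of −1.58 at vehicle, where the brightest gave −0.07. Ch25h gave processed signals of 5.12, 8.70, 9.97 and 36.8 intensity units, near the lowest signals counted as well above background (7.01 to 8.26). In LLC it was higher with IFN-γ by 2.08 (4.22-fold, scanner error 0.50), the only member past 2-fold with the cytokine. That value fell to 0.61 after normexp, and in AB1-HA Ch25h was at least 1.02-fold higher, a bound against the lowest signal well above background. Over all genes in LLC, 3.68% were at least 2-fold higher and 1.46% lower.

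Abca1, the exporter that loads cellular cholesterol onto apolipoprotein and a known target of the sterol-sensing receptor LXR, gave signals of 306, 182, 40.5 and 18.0 intensity units and levels of −2.17, −2.96, −5.30 and −6.28. It was lower with IFN-γ in both lines, with differences of −0.79 (1.73-fold) and −0.98 (1.97-fold), and lower in LLC than in AB1-HA by 8.75-fold with vehicle. On the dim LLC arrays the background correction carried weight: after normexp the IFN-γ difference was −0.63 in AB1-HA and −0.03 in LLC, and LLC with vehicle stood at −1.49 against AB1-HA.

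Counted over all 34 members, 16 were higher by at least 0.32 with IFN-γ in AB1-HA (15 of the sterol arm and Acacb) and 1 was lower (Abca1). In LLC 3 were higher (Acat2, Idi1 and Ch25h) and 6 lower (Acacb, Scd1, Scd2, Srebf1, Scap and Abca1). Over all genes, 10.2% were higher and 15.1% lower in AB1-HA, and 16.7% and 18.2% in LLC, so the members' counts in LLC were not above the background. Scaling each array to its median in place of its 75th percentile moved the median of all genes in LLC by −0.15 and made those counts 1 and 14. The sterol arm's median relative to that of all genes ran from 0.46 to 0.57 in AB1-HA and from −0.13 to 0.03 in LLC over the settings tried. Scaling to another percentile shifts all genes of an array alike, so it could not move this relative value (0.48 either way in AB1-HA). The background filters left the arm's own AB1-HA median at 0.40, so there only the median of all genes moved.

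Over 13836 genes, the median difference of LLC minus AB1-HA with vehicle was −0.05, and 7262 lay below 0. The sterol arm was lower in LLC without the cytokine, with a median of −0.88 and 17 of 19 genes below 0. At least 2-fold lower were Acat2 (−1.36), Idi1 (−1.26), Fdps (−1.06), Lss (−1.58), Nsdhl (−1.33) and Ebp (−2.57, 5.93-fold), and none was 2-fold higher, against backgrounds of 16.0% lower and 16.4% higher. The fatty acid arm had a median line difference of 0.02 with genes on both sides, from Acacb (−0.80) and Fasn (−0.33) to Acaca (0.32) and Elovl6 (0.45). None was past 2-fold with the brightest probe, and Acacb was (−1.28) with the mean over its probes. Of the regulators, Insig1 was 3.22-fold lower in LLC (−1.69, −1.45 after normexp), and Scap and Insig2 were higher by 0.35 and 0.27.

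With IFN-γ the gap in the sterol arm was wider. The median was −1.21, and 15 of 19 genes were at least 2-fold lower in LLC against a background of 13.3%, while Ggps1 alone was 2-fold higher, against 15.4%. The dimmer probe of Ggps1 gave 0.46, which is under 2-fold. The 4 genes that were not 2-fold lower were Sqle (−0.74), Hsd17b7 (−0.70), Sc5d (−0.20) and Ggps1 (1.09). Lss was 4.03-fold and Ebp 6.03-fold lower in LLC on these arrays. In the fatty acid arm Acacb (3.93-fold), and among the regulators Insig1 (4.42-fold) and Srebf1 (2.44-fold), were past 2-fold lower. Over all 34 members, 8 were at least 2-fold lower in LLC with vehicle and 19 with IFN-γ.

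**Figure D4:**
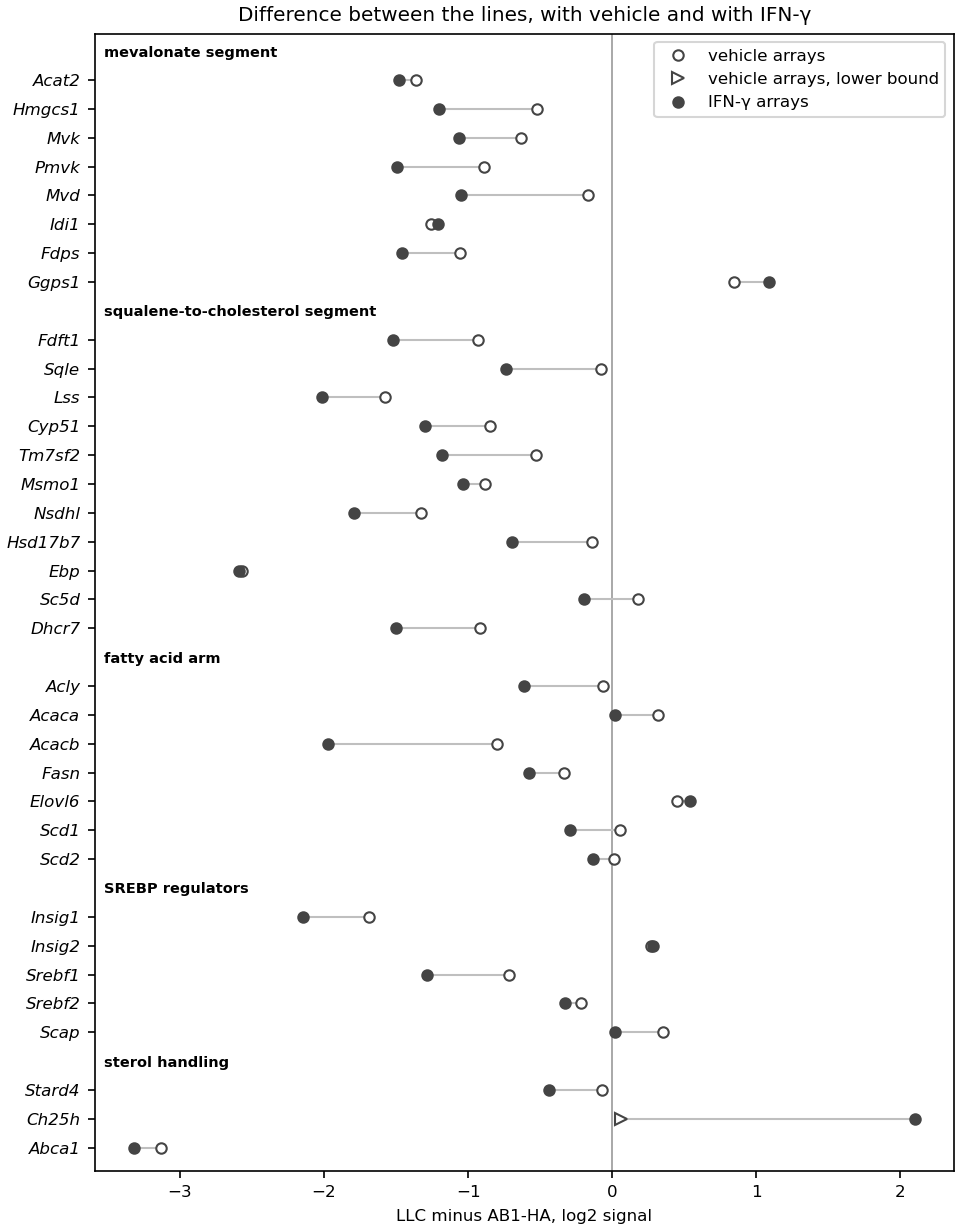
Difference between LLC and AB1-HA (x axis, log2 signal) for each of the 34 genes (y axis, by arm), on the vehicle arrays (open circles) and the IFN-γ arrays (filled circles), with an open triangle for the lower bound of Ch25h; a grey line joins both values of a gene. In the sterol arm the filled circles lie left of the open ones for 17 of 19 genes, the exceptions being Idi1 and Ggps1.

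The difference of the IFN-γ differences, LLC minus AB1-HA, restates the widening per gene over the 33 members measured on all arrays. Over 11985 genes, 5543 lay below 0, 15.8% were lower by at least 0.32 and 21.8% were higher by as much. The median of this difference in the sterol arm was −0.45, with 17 of 19 genes below 0 and 14 lower by at least 0.32. For 14 of the 19 it exceeded the gene's own scanner error of about 0.29. The share of all genes past that error was not computed. The genes with a similar response in both lines were Acat2 (−0.12), Idi1 (0.05), Msmo1 (−0.15) and Ebp (−0.02), and Ggps1 leaned the other way (0.24). The fatty acid arm had a median of −0.30 with 3 of 7 genes past 0.32 (Acly −0.55, Acacb −1.18, Scd1 −0.35), and the regulators −0.33 with 3 of 5 (Insig1 −0.46, Srebf1 −0.57, Scap −0.33). With 1 array per group, whether the responses of the lines differ beyond culture variation cannot be tested.

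Second probes gave a check on the array itself. The 13 members with several probes had 14 further probes, and in AB1-HA 12 of 14 had the sign of the brightest probe, with a median gap of 0.08 and a largest gap of 0.43 (Acacb). In LLC, where most differences were near 0, 9 of 13 had the same sign, with a median gap of 0.12 and a largest of 0.56 (Ggps1). Opposite signs came from Acaca and Srebf2 in AB1-HA and from Nsdhl, Hsd17b7, Acaca and Stard4 in LLC. All 7 further probes of sterol arm genes gave values above 0 in AB1-HA, from 0.13 for Ggps1 to 0.56 for Fdft1.

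**Figure D5:**
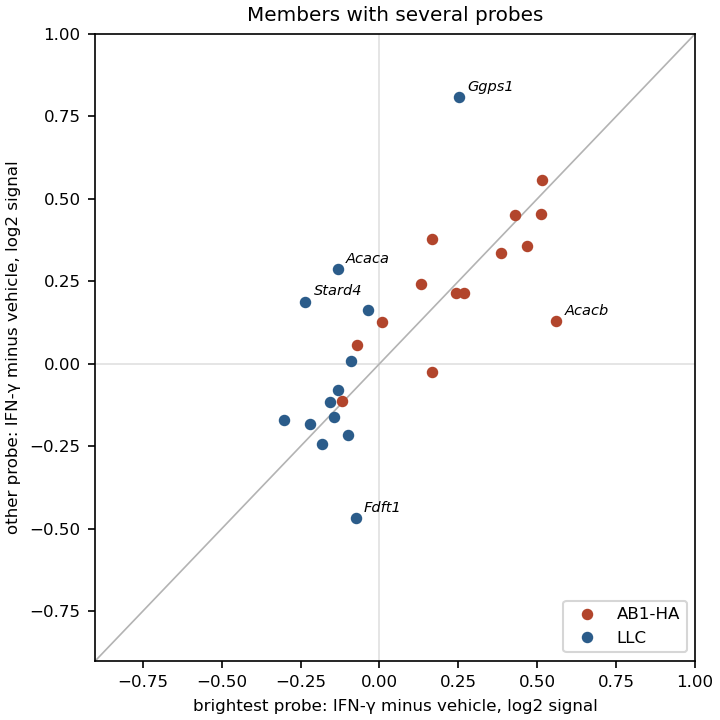
IFN-γ minus vehicle difference (log2 signal) of a gene's brightest probe (x axis) against that of each of its other probes (y axis) for the 13 members with several probes, in AB1-HA (red) and LLC (blue); the grey diagonal marks equal values. The red points lie near the diagonal but for Acacb, and Ggps1, Acaca, Stard4 and Fdft1 are named among the blue points that lie away from it.

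Other genes of lipid metabolism, in 5 lists of 61 genes, were described by the same counts. Their backgrounds are those over all genes: with IFN-γ, 10.2% higher and 15.1% lower by at least 0.32 in AB1-HA (median −0.08) and 16.7% and 18.2% in LLC (median −0.06). A list held 8 to 18 genes with a value, so each count rests on few genes, and no list was tested against another. In sterol transport, esterification and LXR targets, 14 of 15 genes could be read. With IFN-γ, 4 were higher by at least 0.32 and 1 lower in AB1-HA, and 3 were higher and none lower in LLC. Soat1, which esterifies cholesterol for storage, had levels of −0.41, 0.50, −0.88 and −0.72, a difference of 0.91 in AB1-HA and 0.17 in LLC. Its relative Soat2 had levels of −1.23, −0.92, −2.55 and −1.10 and was 2.74-fold higher with IFN-γ in LLC (1.45), with a difference in AB1-HA just under the size counted. Npc1, the lysosomal cholesterol exporter, had differences of 0.41 and −0.06.

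In the fatty acid supply, elongation and desaturation list, Acss2, which makes acetyl-CoA from acetate and is a known SREBP target, had levels of 1.03, 1.74, 0.55 and 0.05. Its differences were 0.71 (1.64-fold) in AB1-HA and −0.50 in LLC, the same opposite directions as Acly. Of that list 3 of 17 genes were counted as higher in AB1-HA and none as lower, and in LLC 2 of 18 were higher and 2 lower. Among the 8 glycerolipid genes, 2 were higher and none lower in AB1-HA, and 1 higher and 4 lower in LLC, where the list had a median of −0.35. Lpin1, the phosphatidate phosphatase, had levels of −0.32, 0.11, 0.49 and −0.07 and differences of 0.42 and −0.56, though its probes differed on which line was higher at vehicle. Not all genes of these 2 lists ran in opposite directions. Lpin2 was higher with IFN-γ in both lines (0.36 and 0.58), as was Acsl5 of the fatty acid supply list (0.40 and 0.77). Mogat2, an acyltransferase, was 5.54-fold lower with IFN-γ in LLC at dim signals of 107.5 and 17.0 intensity units, which normexp reduced to −0.63.

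The 8 genes of SREBP processing gave 1 higher in AB1-HA and 2 lower in LLC, with medians of −0.09 and −0.14. The 11 genes of isoprenoid use, which draw on the mevalonate segment's products, gave 2 lower in AB1-HA and 1 higher in LLC, with medians of −0.10 and 0.02. The gene higher in LLC was Nus1 (0.44), whose difference fell to 0.10 in the lowest of the other settings. Between the lines at vehicle, where 16.0% of all genes were at least 2-fold lower in LLC and 16.4% higher, the fatty acid list held 5 of 18 genes lower by that much (Elovl1, Fads1, Fads2, Fads3 and Mlx) and 1 higher, Elovl7, a long-chain elongase at least 54.2-fold higher in LLC and not well above background in AB1-HA. The sterol transport list held 4 lower (Vldlr −2.01, Soat2 −1.32, Mylip −1.36 and Nr1h3 −1.29) and 1 higher (Nceh1, 1.85). Isoprenoid use held 3 lower (Dhdds, Nus1 and Rabggtb) and 1 higher (Fntb, 1.27), and glycerolipid assembly 1 higher (Dgat2, 2.01). Dhdds (−1.13) and Nus1 (−1.25) were not 2-fold lower under every setting, with values up to −0.29 and −0.63.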

How the data were processed

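Total RNA of the 4 groups was labelled with Cy3, per the labels' protocols, and hybridised to 4 one-colour arrays. The deposited intensity values are Agilent Feature Extraction 10.7.1.1 output with local background subtracted and no scaling between arrays, per the file headers. The deposited log2 value table of the authors correlated at 0.999998 or more with log2 signals taken relative to the 75th percentile and with each probe's median subtracted, with column medians of 0.11, −0.08, −0.13 and 0.08, and served as an alternative.

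Here log2 of the processed signal minus each array's 75th percentile was used (Python 3.11.15, numpy 2.4.6, pandas 2.3.3). Control spots and 166 to 201 outlier spots per array were left out. Probes were named by unversioned RefSeq accession through a table of assembly GRCm38.p6, and 12844 of 39419 stayed unnamed. A gene's brightest named probe was used. A probe not well above background on 1 array gave a bound. Differences of 0.32 (log2) and 2-fold were the sizes counted, all 34 members were named, and no test was run. limma 3.58.1 in R 4.3.3 gave the quantile, cyclic loess and normexp (offset 50) alternatives. The calculation was tested on simulated data. The members and lists were chosen with earlier results of these data known. The line comparison of the SREBP processing list is not reported here.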

Additional observations from a re-analysis of the deposited data

Results flagged for a closer look

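Among the 34 members and the 61 genes of the other lipid lists, 8 genes had IFN-γ differences that pointed in opposite directions in AB1-HA and LLC, each larger than its own scanner error. The share of all genes that meet this rule was not computed, so the count is no result about these lists. The 8 genes are given as LLC minus AB1-HA on the log2 scale, and none of these differences was tested, since each group had 1 array. In the sterol arm they were Mvd (−0.89), Pmvk (−0.61) and Dhcr7 (−0.58). The arm's median difference, −0.45, was also singled out because the arm's median was above 0 in AB1-HA (0.40) and below 0 in LLC (−0.06, where all genes had the same median). In the fatty acid arm they were Acacb (−1.18), whose second probe was not well above background in LLC, and Acly (−0.55), and among the regulators Insig1 (−0.46). Among the other lipid genes, Acss2 (−1.21) and Lpin1 (−0.98) were singled out in the same way.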

How the results depend on the processing

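No paired analysis by replicate was possible because each group had 1 array and the labels give no replicate numbers; a fit of IFN-γ over both lines with line as a block was not run. Array median scaling gave LLC medians of −0.21 in the sterol arm (−0.06 in the report), −0.45 in the fatty acid arm (−0.30) and −0.36 in the regulators (−0.21), and differences between the lines' responses of −0.59, −0.44 and −0.47 (−0.45, −0.30 and −0.33). It made the counts of members higher and lower by at least 0.32 in LLC 1 and 14 (3 and 6). Quantile normalization put the regulators' difference of responses at −0.48, and cyclic loess the sterol arm's AB1-HA median at 0.50 (0.40). Normexp put the fatty acid arm's AB1-HA median at −0.0243 (0.13) and the count of members lower in AB1-HA at 2 (1), and the mean over a gene's probes put that arm's LLC median at −0.13. With that mean, Acacb in LLC turned to 0.0026 (−0.62) and Lpin1 between the lines at vehicle to −0.11 (0.80). The cause of these shifts was not tested. Over all genes, array median scaling moved the median by −0.15 in LLC and −0.14 in the difference of responses, and cyclic loess by 0.12 between the lines at vehicle and −0.10 in that difference. Of 162 alternative values of the main results, 149 moved by less than the typical spread between probes of a gene, or for counts by less than 1.5 times, and of 1609 single-gene values 1458 did. Several settings could hardly move a value: the background filters left the arm medians unchanged, and the authors' table and kept outlier spots nearly repeated them. An arm's median was also held to a spread of single genes, so these tallies do not measure stability. Under every setting but normexp (18 of 19), all 19 sterol genes lay above 0 in AB1-HA. With 1 array per group these settings say nothing of variation between cultures, and near background (Ch25h, Abca1, Acat2) the sizes rest on how background was subtracted.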
